A study of Mus musculus with 6 samples.

Results

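The genes described here are 39 genes of the type I interferon response, from the receptor and its transcription factors to the antiviral proteins they induce. They were taken from a list of symbols, and 36 of the 39 had a probe set that the array's annotation assigns to that gene alone, out of 19937 genes measured in this way. Isg15 and Ifi204 were covered by probe sets shared with another gene, and Ifi44 by no probe set with its symbol here, so these 3 were not analysed here. For Irf1, the one member with several such probe sets, the probe set with the highest mean signal was used.

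RNA came from 230-238, a mouse B-cell line, on 6 one-colour Affymetrix arrays, with 3 samples in each of 2 groups that the labels call biological replicates. The first group (GFP) was infected with a plasmid for green fluorescent protein, and the second (GFP+FOG1) with a plasmid for GFP and FOG1, the GATA cofactor that the gene Zfpm1 encodes. Both groups spent 3 days in RPMI1640 medium, were sorted as GFP-positive cells and grew for 4 more days, so infection, sorting and GFP are common to both; RNA was purified without DNase. All samples stem from 1 cell line, and the promoter that drives FOG1 is not given in the sources used here. No label says that the replicates came from separate infections, so the p-values measure only the spread between these samples.

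Type I interferons are secreted proteins that warn cells of infection. They bind a receptor of the chains IFNAR1 and IFNAR2, whose kinases JAK1 and TYK2 activate STAT2. STAT2 joins IRF9 in a complex, ISGF3, that binds the interferon-stimulated response element (ISRE) in promoters of antiviral genes, while another element, GAS, serves the response to interferon gamma. Many members are also transcribed at a low, tonic level in blood cells without infection.

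To see how many members carry known response elements, their promoter windows were searched, from 250 bases before to 50 bases after each RefSeq start site (build GRCm38.p6). A window was at hand for 27 of the 39 members. The ISRE core, which is GAAA, any NN and GAAA again, was read on both strands and found for 12 of these 27 members (44.4%), and for 3.99% of all 27025 genes with a window. Isg15 is among the 12. The stretches below are written 5′ to 3′ on the gene's strand, with 1 match in capitals. A match that begins with TTTC is the core on the opposite strand. Ifit1, Ifit3, Oas1a and Bst2 each have 2 matches, of which 1 is marked. In Oas1a and Bst2 the unmarked match overlaps the capitals and begins in the lower-case letters before them. The stretches chosen stand for the most variable members of the results (Ifit1, Ifit3) and for members of the OAS family. They also stand for the antiviral effector Bst2 and for the transcription factor Stat2, whose gene carries the element as well.
Ifit1 (chr19:34640794-34640823, plus strand): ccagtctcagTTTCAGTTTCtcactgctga
Ifit3 (chr19:34583397-34583426, plus strand): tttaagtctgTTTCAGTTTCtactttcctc
Oas1a (chr5:120907520-120907549, minus strand): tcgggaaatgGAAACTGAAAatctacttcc
Oas3 (chr5:120777715-120777744, minus strand): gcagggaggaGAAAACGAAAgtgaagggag
Stat2 (chr10:128270266-128270295, plus strand): cgcaccctggTTTCAGTTTCctttccctag
Bst2 (chr8:71537577-71537606, minus strand): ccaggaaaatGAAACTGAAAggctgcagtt

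The GAS pattern TTCNNNGAA, which reads the same on both strands, was found for 9 of the 27 members (33.3%) against 9.55% of all genes. Both receptor genes and Irf1 hold it, as the next stretches show, and no ISRE core was found in their windows. In the member windows 1 ISRE core match overlapped a GAS match. A match is a description of letters, not a measured binding site.
Ifnar1 (chr16:91485200-91485228, plus strand): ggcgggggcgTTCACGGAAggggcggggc
Ifnar2 (chr16:91372559-91372587, plus strand): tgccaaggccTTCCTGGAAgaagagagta
Irf1 (chr11:53769914-53769942, plus strand): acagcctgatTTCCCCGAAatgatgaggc

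Before the results, the arrays as a whole are described. Signals are deposited log2 values, with array medians between 6.98 and 7.04, and any 2 arrays correlated at 0.9925 to 0.9960. FOG1 itself went with the labels, since Zfpm1 rose from a mean of 9.44 to 10.18 log2 units with no overlap between groups (limma adjusted p = 0.00382). Listed B-cell markers were strongly measured, with the mean of each of the 9 above the median of all values. On the first principal component GFP+FOG1 replicate 1 lay at 1.15, between the GFP arrays (-16.06 to -11.38) and the other FOG1 arrays (16.99 and 24.28).

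Nearly all interferon response genes showed no detectable change between the groups. Of the 36 measured members 1 passed an adjusted p of 0.05 (limma with Benjamini-Hochberg over all 34760 probe sets), and 0.161% of all 19937 genes did so at 1 probe set each (0.224% of all probe sets). That member was Samd9l, which was lower with FOG1, and 0.1% of all genes passed in that direction. At an unadjusted p under 0.05 there were 5 members, or 13.9%, against 11% of all genes: Samd9l, Irf1, Irf7 and Lgals3bp had negative log2 changes and Ifnar1 a positive one. After median centring that split was 3 above 0 and 3 below. The signals of GFP and FOG1 arrays did not overlap for 5 members, or 13.9%, against 20.8% of all genes (10.2% higher with FOG1 and 10.5% lower). Both shares of 13.9% lie near or under the background and are no result about the members, and the adjusted count rests on 1 gene.

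The members' log2 changes (GFP+FOG1 minus GFP) ran from -0.52 to 0.30, with 14 above 0 and 22 below. Their median was -0.05, against -0.01 over all genes, of which 45.8% were above 0. The sign of that median rested on single arrays: it was 0.01 without GFP replicate 1, 0.001 without GFP+FOG1 replicate 1 and -0.12 without GFP+FOG1 replicate 3. For 29 of the 36 members the 95% interval of the change lay within 1.5-fold in either direction, and for 34 within 2-fold. Ifit1 and Ifit3 were the exceptions at 2-fold, with intervals of -1.44 to 0.39 and -1.10 to 0.34. In bulk RNA, fewer cells making a transcript and less transcript per cell cannot be told apart.

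**Figure D1:**
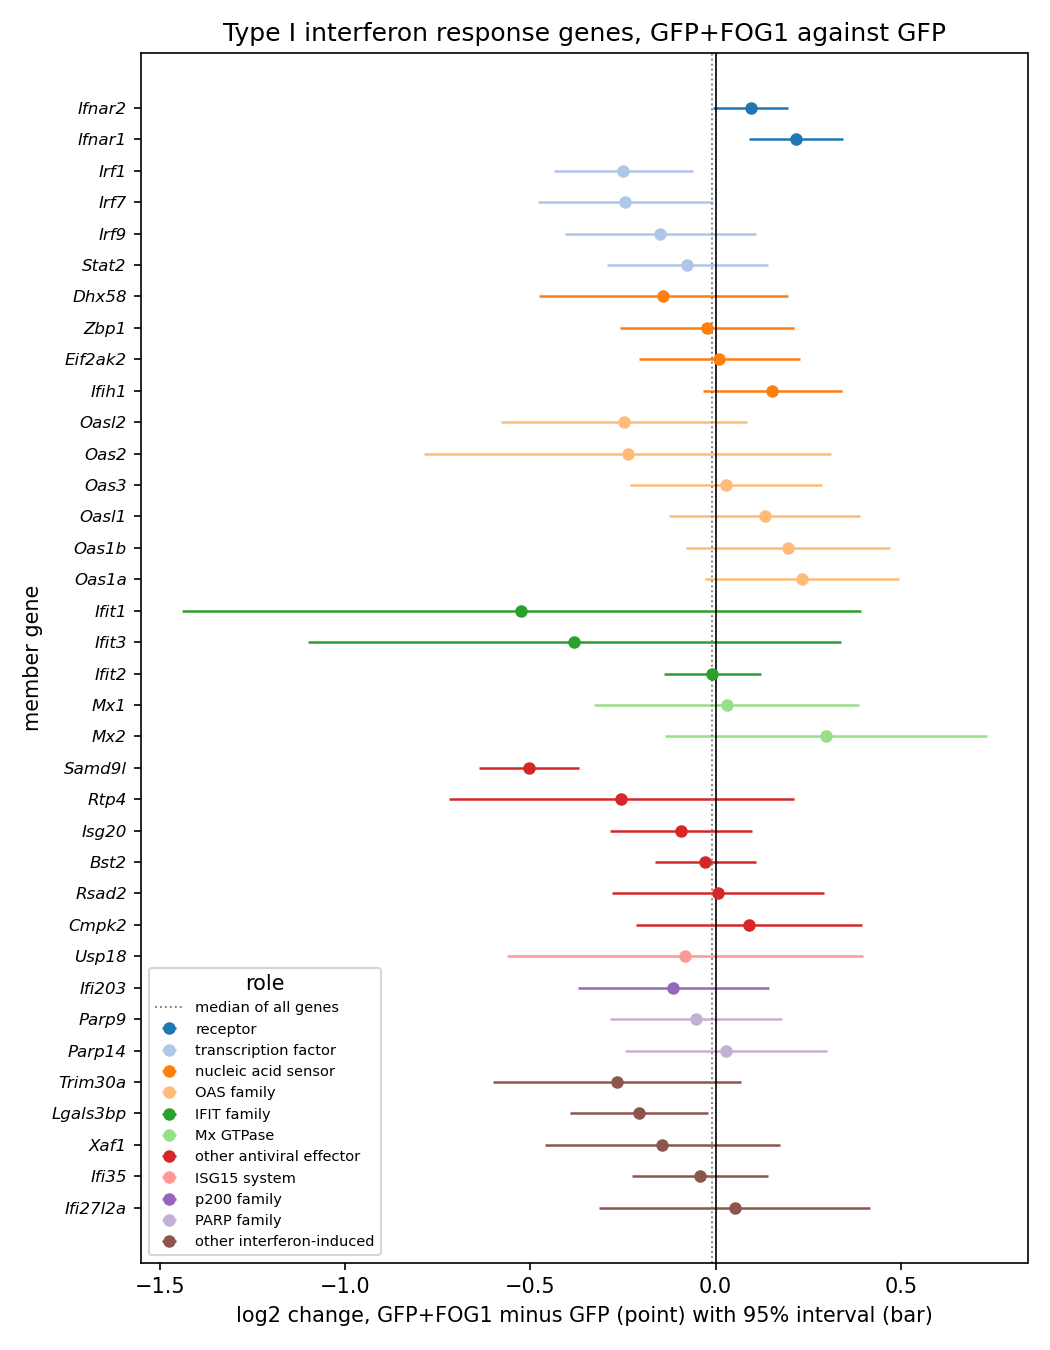
Log2 change of each of the 36 measured members, GFP+FOG1 minus GFP, with its 95% interval from limma (3 arrays in each group); members are ordered and coloured by role, and the dotted line is the median of all genes, -0.01. Samd9l, at -0.50, has a narrow interval well below 0, and 31 of the 36 intervals include 0.

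Samd9l encodes a cytoplasmic protein that restrains poxviruses and cell growth. Its signal was 9.05, 8.94 and 9.01 on the GFP arrays and 8.44, 8.47 and 8.57 on the GFP+FOG1 arrays. All FOG1 arrays lay below all GFP arrays, and the gap between the groups was wider than the range within either. It fell 1.42-fold, from a mean of 9.0 ± 0.06 to 8.50 ± 0.07 (SD over 3 arrays in each group). The log2 change was -0.50 with an SE of 0.06 (limma adjusted p = 0.039). The call stands close to the threshold. It was lost after median centring (adjusted p = 0.0675) and without any single one of the 6 arrays (adjusted p = 0.095 to 0.192), while the log2 change stayed between -0.54 and -0.48 in all 14 alternatives. The RefSeq window of Samd9l, shown because it is the called member, holds none of the searched letters, which says only that they are not in these 300 bases.
Samd9l (chr6:3399522-3399821, minus strand): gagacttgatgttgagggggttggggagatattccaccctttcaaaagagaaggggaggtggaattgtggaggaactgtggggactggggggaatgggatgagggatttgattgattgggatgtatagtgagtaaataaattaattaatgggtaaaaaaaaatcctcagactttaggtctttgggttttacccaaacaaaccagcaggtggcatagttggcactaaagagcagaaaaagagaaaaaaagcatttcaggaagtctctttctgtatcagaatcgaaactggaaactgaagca

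The receptor genes did not pass, although their groups did not overlap. Ifnar1, the chain that carries TYK2, gave 9.20, 9.30 and 9.23 on the GFP arrays and 9.40, 9.46 and 9.51 with FOG1. The FOG1 arrays were the higher ones throughout, by 0.22 log2 units with an SE of 0.05 (limma adjusted p = 0.227). Ifnar2, the main ligand-binding chain, gave 9.88, 9.95 and 9.93 against 10.01, 10.02 and 10.01. Again every FOG1 array was higher, but by 0.10 log2 units only, with an SE of 0.04 (limma adjusted p = 0.419).

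Of the 4 transcription factors none passed, and all 4 had negative log2 changes. Irf1, a factor induced by both interferon types, gave 8.86, 8.95 and 8.73 against 8.70, 8.50 and 8.60, so that its groups just failed to overlap. Its log2 change was -0.25 (SE 0.08; limma adjusted p = 0.312), and its dimmer second probe set gave -0.19 (adjusted p = 0.227). Irf7, which amplifies interferon production, gave 7.87, 7.79 and 7.62 against 7.44, 7.43 and 7.69. The groups of Irf7 overlapped through GFP+FOG1 replicate 3, which lay above GFP replicate 3 (log2 change -0.24, limma adjusted p = 0.388).
The ISGF3 subunit genes were closer together. Irf9 gave 9.58, 9.39 and 9.26 against 9.10, 9.28 and 9.40, and Stat2 gave 9.31, 9.12 and 9.01 against 9.02, 9.01 and 9.18. In both genes the groups overlapped, with log2 changes of -0.15 and -0.08 (limma adjusted p = 0.594 and 0.747).

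The sensors of viral nucleic acid gave changes on both sides of 0. Ifih1 encodes MDA5, a sensor of long double-stranded RNA, and gave 6.58, 6.67 and 6.62 against 6.73, 6.66 and 6.93. GFP+FOG1 replicate 3 stood above the rest, and the groups overlapped (log2 change 0.15, limma adjusted p = 0.466). Its signal was below the median of all values. Dhx58, which encodes the regulator LGP2, had a log2 change of -0.14, and the sensor of Z-form nucleic acids Zbp1 one of -0.02. Eif2ak2, the gene of the kinase PKR that halts translation, had one of 0.01 (limma adjusted p = 0.698 to 0.971 for these 3).

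The OAS genes encode enzymes that sense double-stranded RNA and feed RNase L, a nuclease, and relatives of these enzymes. None of the 6 passed, with 4 above and 2 below 0 (limma adjusted p = 0.435 to 0.930). Oas1a gave 7.15, 6.89 and 7.04 against 7.20, 7.12 and 7.47, and Oas1b gave 7.88, 7.70 and 7.86 against 7.79, 7.99 and 8.23. Both had their highest signal on GFP+FOG1 replicate 3 and overlapping groups, with log2 changes of 0.23 and 0.19. Oasl2 gave 7.69, 7.64 and 7.23 against 7.23, 7.15 and 7.43, a change in the other direction (-0.25). Oas2 spread most among the FOG1 arrays, at 7.87, 8.42 and 8.77, while its GFP arrays gave 8.82, 8.49 and 8.46. Its log2 change was -0.24, against a range of 0.90 between FOG1 arrays, and it was 0.0035 without GFP+FOG1 replicate 1. Oasl1 had a change of 0.13 and Oas3 of 0.03. OAS genes are close copies of each other, so probes can share signal between them.

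The IFIT genes, whose products bind viral RNA, held the most and some of the least variable members. Ifit1 gave 8.67, 8.34 and 7.48 on the GFP arrays and 8.29, 7.22 and 7.40 with FOG1. Ifit3 gave 9.12, 8.85 and 8.08 against 8.60, 7.89 and 8.41. In both genes GFP replicates 1 and 2 and GFP+FOG1 replicate 1 were high, GFP replicate 3 and GFP+FOG1 replicate 2 were low, and the groups overlapped. The log2 change of Ifit1 was -0.52 with an SE of 0.38, and that of Ifit3 was -0.38 with an SE of 0.30 (limma adjusted p = 0.597 and 0.624). Single arrays moved both: Ifit1 was at -0.27 without GFP replicate 1, -0.32 without GFP+FOG1 replicate 2, -0.86 without GFP replicate 3 and -0.85 without GFP+FOG1 replicate 1. Ifit3 was at -0.16 without GFP replicate 1, -0.18 without GFP+FOG1 replicate 2 and -0.68 without GFP replicate 3. Ifit2, a neighbour of both on the chromosome, kept between 7.21 and 7.33 on all 6 arrays, with a change of -0.01. Its sign turned after quantile normalization (0.012) and after median centring (0.017).

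**Figure D2:**
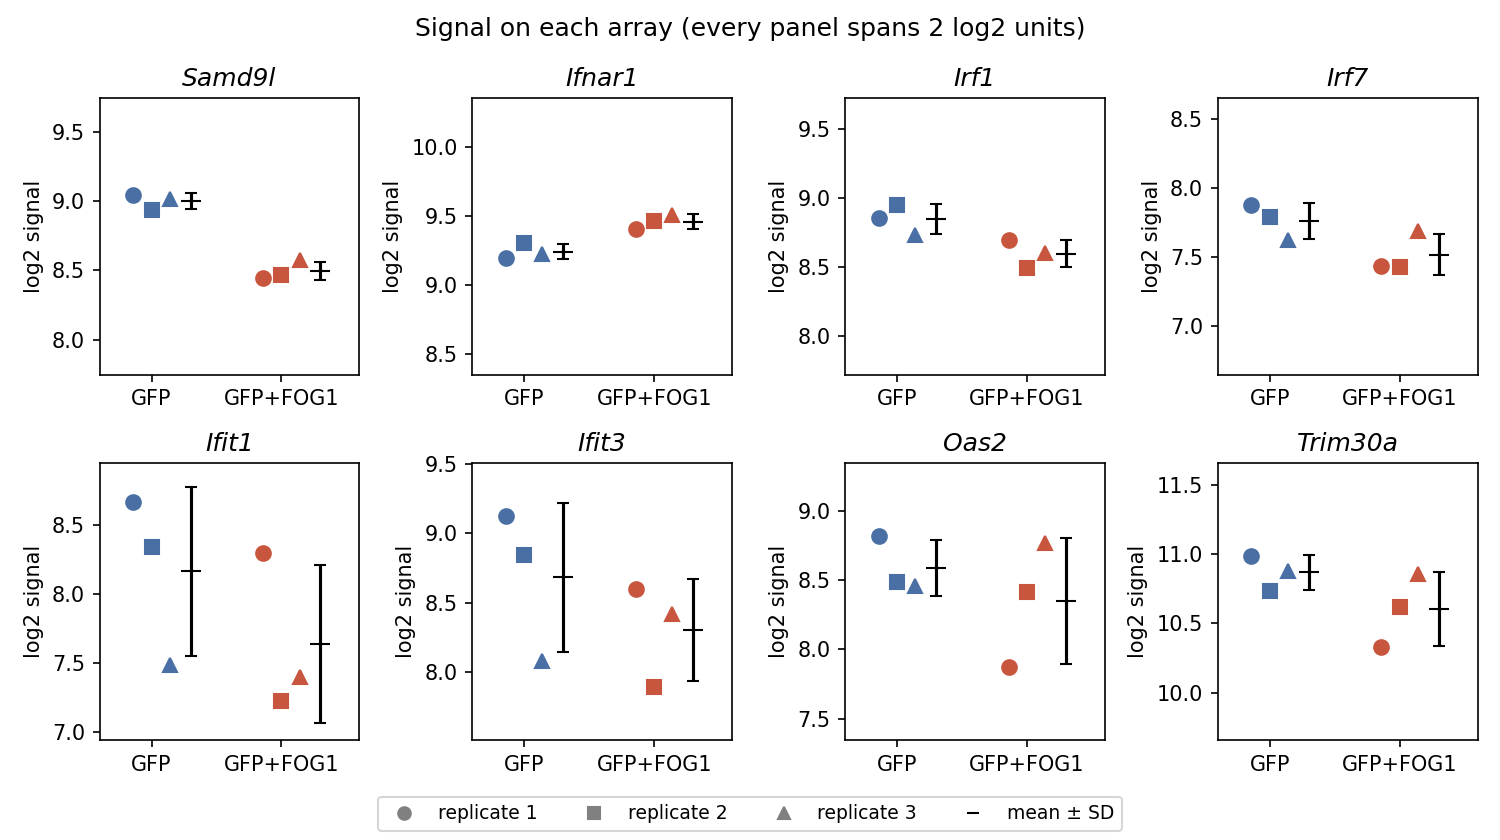
Log2 signal of 8 members on each array, with GFP arrays in blue and GFP+FOG1 arrays in red; symbols mark the replicate number, black marks are the mean ± SD (n = 3), and every panel spans the same height. In Samd9l and Ifnar1 the groups are apart with little spread, while in Ifit1, Ifit3, Oas2 and Trim30a arrays of the same group differ by more than the group means.

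The Mx genes encode dynamin-like GTPases that trap viral components. Mx2 gave 5.89, 5.67 and 5.81 against 5.73, 6.06 and 6.48. It had the highest log2 change of the members, 0.30 (SE 0.18; limma adjusted p = 0.530), and that value was 0.10 without GFP+FOG1 replicate 3. Mx1 had a change of 0.03. Signals of both lay below the median of all values, and the Mx copies resemble each other enough that probes can share signal.

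Besides Samd9l, the other antiviral effectors moved little between groups. Rtp4, an interferon-induced receptor transporter gene, gave 8.14, 7.76 and 7.75 against 7.32, 7.54 and 8.02, with a log2 change of -0.25. Bst2, which encodes tetherin and holds budding virus at the cell surface, kept between 8.44 and 8.56 on all arrays (-0.03). Isg20, a nuclease gene, had a change of -0.09, and the nucleotide kinase gene Cmpk2 one of 0.09. Rsad2, next to Cmpk2 and encoding viperin, had one of 0.01 at a dim signal. For these 5 the limma adjusted p lay between 0.614 and 0.988.

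Regulators and further induced genes gave a similar picture. Trim30a, a TRIM family gene, gave 10.99, 10.74 and 10.88 against 10.33, 10.62 and 10.86, so that 1 of the FOG1 arrays reached the GFP range (log2 change -0.27, limma adjusted p = 0.475). Lgals3bp, which encodes a secreted galectin-binding glycoprotein, gave 10.68, 10.81 and 10.68 against 10.64, 10.39 and 10.52. Its groups did not overlap, at -0.21 log2 units with an SE of 0.08 (limma adjusted p = 0.364). Usp18, whose protein removes ISG15 and damps the receptor, had a change of -0.08, and Ifi203 one of -0.11; it belongs to the p200 family of near copies, as Trim30a does to its own, so probes can be shared. Parp9 and Parp14, of the ADP-ribosyltransferase family, had changes of -0.05 and 0.03. Xaf1, Ifi35 and the mitochondrial protein gene Ifi27l2a had changes of -0.14, -0.04 and 0.05 (limma adjusted p = 0.676 to 0.930 for these 7).

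Within each group, the members differed from array to array together. This pattern was chosen after the values were seen. Among the FOG1 arrays, replicate 3 had the highest signal for 31 of 36 members (86.1%), against 43.2% of all genes, and replicate 1 the lowest for 24 (66.7%), against 34.6%. Among the GFP arrays, replicate 1 was highest for 28 members (77.8%), against 29.5% of all genes. For 26 members both held at once, against 14.5% of all genes. The 5 members that were not highest on GFP+FOG1 replicate 3 were Ifnar2, Irf1, Ifit1, Ifit3 and Lgals3bp.

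In log2 units the members' median deviation from their group mean was 0.16 on GFP+FOG1 replicate 3, -0.03 on replicate 2 and -0.11 on replicate 1. On the GFP arrays it was 0.11, -0.03 and -0.06 for replicates 1, 2 and 3. Over all genes these medians stayed between -0.01 and 0.02. The median member ranged over 0.32 log2 units across the 3 FOG1 arrays and over 0.24 across the GFP arrays, where the median gene ranged over 0.12 in each. For 32 of 36 members (88.9%) the range within the FOG1 group exceeded the size of the change between groups, as it did for 75.5% of all genes. In the GFP group the same held for 26 members (72.2%), against 74.8% of all genes. With quantile normalization 30 members were highest on GFP+FOG1 replicate 3 and 30 on GFP replicate 1, against 39.1% and 35.3% of all genes. With median centring these were 30 and 31 members, against 41% and 42.2% of all genes.

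The promoter element can be set beside this pattern. Of 11 measured members with an ISRE core in their window, 9 were highest on GFP+FOG1 replicate 3, and of 14 with a window but no core, 11 were. Their median log2 changes between groups were -0.03 and -0.12, a difference that was not tested.

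Markers of other cells were set beside this pattern. Of the 8 fibroblast and stromal markers, 6 were lowest of the FOG1 arrays on replicate 3 and 2 highest, and their median deviation was 0.25 on replicate 1 and -0.28 on replicate 3. Pdgfrb, a growth factor receptor gene of stromal cells, gave 8.97, 8.59 and 7.59 on FOG1 replicates 1, 2 and 3, and the collagen gene Col1a1 gave 9.90, 9.61 and 8.99; both were picked after their values were seen. The markers highest on replicate 3 were Thy1, at 8.38, 8.29 and 8.43, and Dcn, at 5.84, 5.79 and 5.92. Summed on the linear scale, that list reached 2505 to 2735 on the GFP arrays and 1853 to 3050 on the FOG1 arrays, and 3 of the 8 markers, Dcn, Lum and Pdgfra, were below the median of all values. Of the 9 measured B-cell markers, 7 were highest on GFP replicate 1 and 6 on GFP+FOG1 replicate 3, with median deviations of 0.03 on each. Their summed level was 41550 to 42630 on the GFP arrays and 38220 to 39630 with FOG1, with log2 changes of -0.41 for Cd79a, -0.16 for Cd79b and -0.02 to 0.04 for the others; neither of the former passed (limma adjusted p = 0.0884 and 0.247), and the list's median was -0.01. The part of these cells or genes in the members' pattern was not tested.

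Plasmacytoid dendritic cells, which make much interferon, have Siglech and Ccr9 as defining markers, and both were below the median of all values. Of 7 measured markers of that type 4 were below it, while Ly6d, Tcf4 and the member Bst2 were above it. The list summed to 4921 to 5088 on the GFP arrays and 4508 to 5024 on the FOG1 arrays. Of its 7 markers, 5 were highest of the FOG1 arrays on replicate 3, with a median deviation of 0.08, against 43.2% of all genes. On GFP replicate 1, 4 of the 7 were highest of the GFP arrays, against 29.5% of all genes. Bst2, itself a member, is among both. Of the 9 monocyte and macrophage markers 7 were below the median of all values, and all 9 had negative log2 changes, Itgam alone passing at -1.11 (limma adjusted p = 0.00747). That list summed to 1419 to 1580 on the GFP arrays and 1207 to 1259 on the FOG1 arrays. Among the FOG1 arrays 7 of the 9 were highest on replicate 1 and 1 on replicate 3. For T and NK cells, 6 of 7 markers were below the median of all values, and the sums were 392.7 to 398 and 378.1 to 413.3. On GFP+FOG1 replicate 3, 3 of these 7 were highest of the FOG1 arrays. The part of these cell types in the members' values was not tested.

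**Figure D3:**
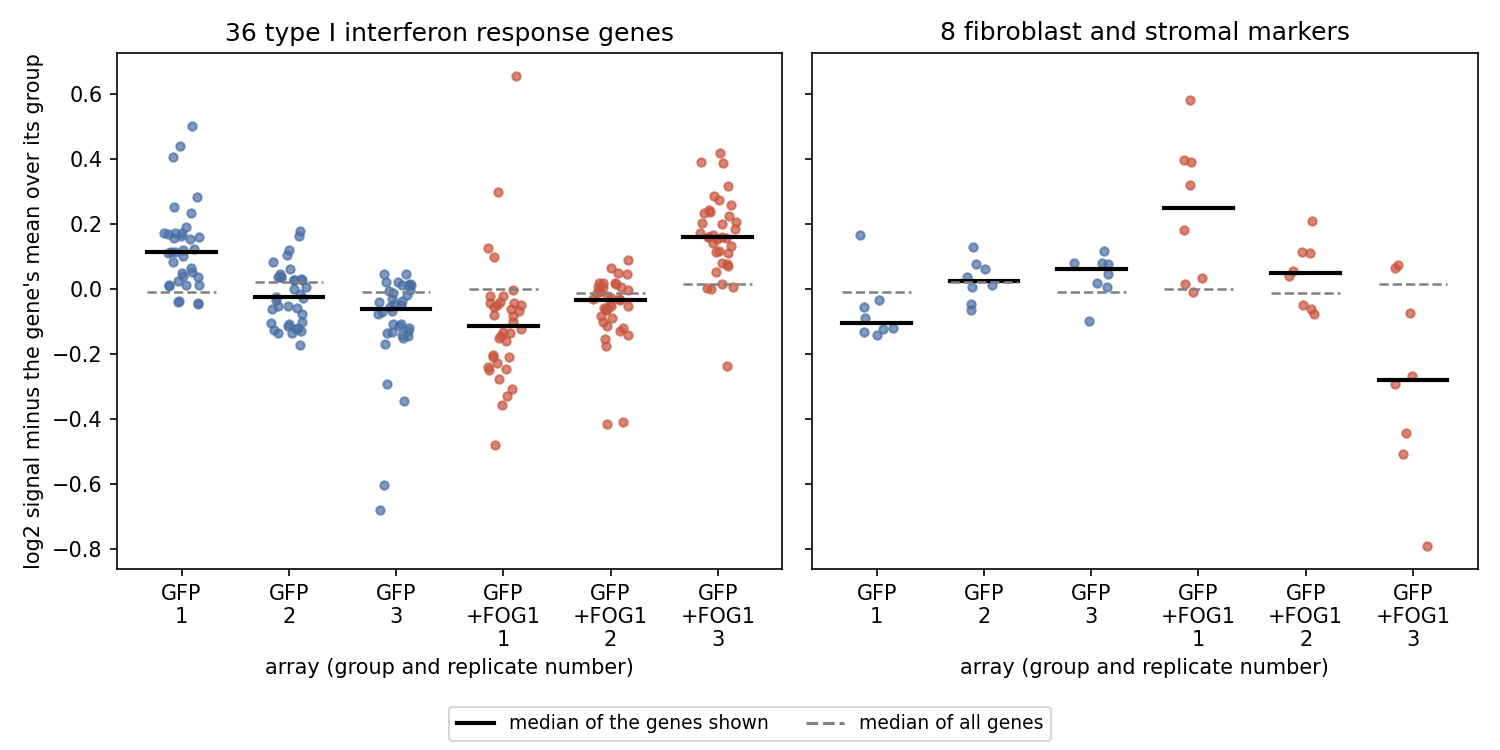
Log2 signal on each array minus the gene's mean over the 3 arrays of its group, for the 36 measured members (left) and 8 fibroblast and stromal markers (right); points are genes, black lines their median, and grey dashed lines the median of all genes. The members sit high on GFP replicate 1 and GFP+FOG1 replicate 3 (medians 0.11 and 0.16), and the stromal markers sit low on the latter (-0.28).

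Other genes of the pathway were read from 5 further lists with 124 genes, of which 102 were measured. A single one of the 102 passed, Tlr7, and their median log2 change was -0.04. At an unadjusted p under 0.05 there were 18 (17.6%), 2 of them above 0 and 16 below, against 4.92% and 6.11% of all genes in those directions.

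The interferon ligands gave little signal. Of 14 measured type I and III genes 11 were below the median of all values, and none passed. Ifnb1 gave 5.33, 4.97 and 5.34 against 5.15, 5.01 and 4.98, with overlapping groups. The ligand probe set with the most signal, that of the type III gene Ifnl2, gave 8.37, 8.57 and 8.60 against 8.65, 8.40 and 8.45, also overlapping (log2 change -0.02). Ifna5 gave 8.50, 8.60 and 8.57 against 8.45, 8.45 and 8.33 (log2 change -0.15, limma adjusted p = 0.362). The interferon alpha genes are near-identical copies, so their values cannot be laid to 1 gene with certainty. Ifna11, at the lower end of the signal scale, had a change of -0.20 (adjusted p = 0.335).

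Downstream of the receptor, none of 13 kinases, STATs and inhibitors passed, with a median of 0.01. The smallest p values were those of the phosphatase gene Ptpn6 (-0.11), the feedback inhibitor gene Socs1 (-0.12) and the STAT inhibitor gene Pias2 (0.09). Log2 changes were 0.01 for Jak1 and -0.01 for Tyk2.

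Among 15 sensors and adaptors that lead to interferon production, 11 had negative log2 changes. Tlr7, whose product detects single-stranded RNA in endosomes, fell 1.83-fold, from 7.58, 7.54 and 7.59 to 6.52, 6.66 and 6.91 (log2 change -0.87, limma adjusted p = 0.039). All its FOG1 arrays lay far below its GFP arrays. The call was lost after median centring (adjusted p = 0.0527) and without each array other than GFP+FOG1 replicate 3 (0.0778 to 0.192). Irf8, a factor of B cells and dendritic cells, gave 10.71, 10.65 and 10.53 against 10.34, 10.39 and 10.39. Its groups were apart, but it did not pass (log2 change -0.25, limma adjusted p = 0.216), and neither did the DNA sensor gene Tlr9 (-0.17, adjusted p = 0.345).

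The 17 genes of the interferon gamma receptor and response had a median of 0.01, and none passed. The GTPase gene Gbp8 (-0.22) and the receptor chain genes Ifngr1 (-0.08) and Ifngr2 (0.08) had the smallest p values. On GFP+FOG1 replicate 3, 15 of the 17 (88.2%) were at their highest of the FOG1 arrays, where 43.2% of all genes were. The count there was 1 of 14 ligands, 8 of 13 receptor signalling genes, 11 of 15 sensors and adaptors and 25 of 43 further induced genes (58.1%). Of these 43 genes induced by type I interferon 33 had negative changes and none passed, with a median of -0.08. Slfn2, of the Schlafen family, gave 8.96, 8.91 and 8.83 against 8.54, 8.44 and 8.66, and Ifitm1, of a family that blocks virus entry, gave 7.82, 7.89 and 7.97 against 7.69, 7.52 and 7.57. Both sets of groups were apart, with changes of -0.35 and -0.30 (limma adjusted p = 0.176 and 0.202). Ifitm1 passed when its 2 probe sets were averaged (limma adjusted p = 0.0446), in a setting that adjusts over 19937 genes in place of 34760 probe sets. In that setting Slfn2 had 0.0873. With 1-symbol probe sets alone and no averaging, Ifitm1 had 0.115. Ifi30, a lysosomal reductase gene, had a change of -0.21 (adjusted p = 0.220).

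**Figure D4:**
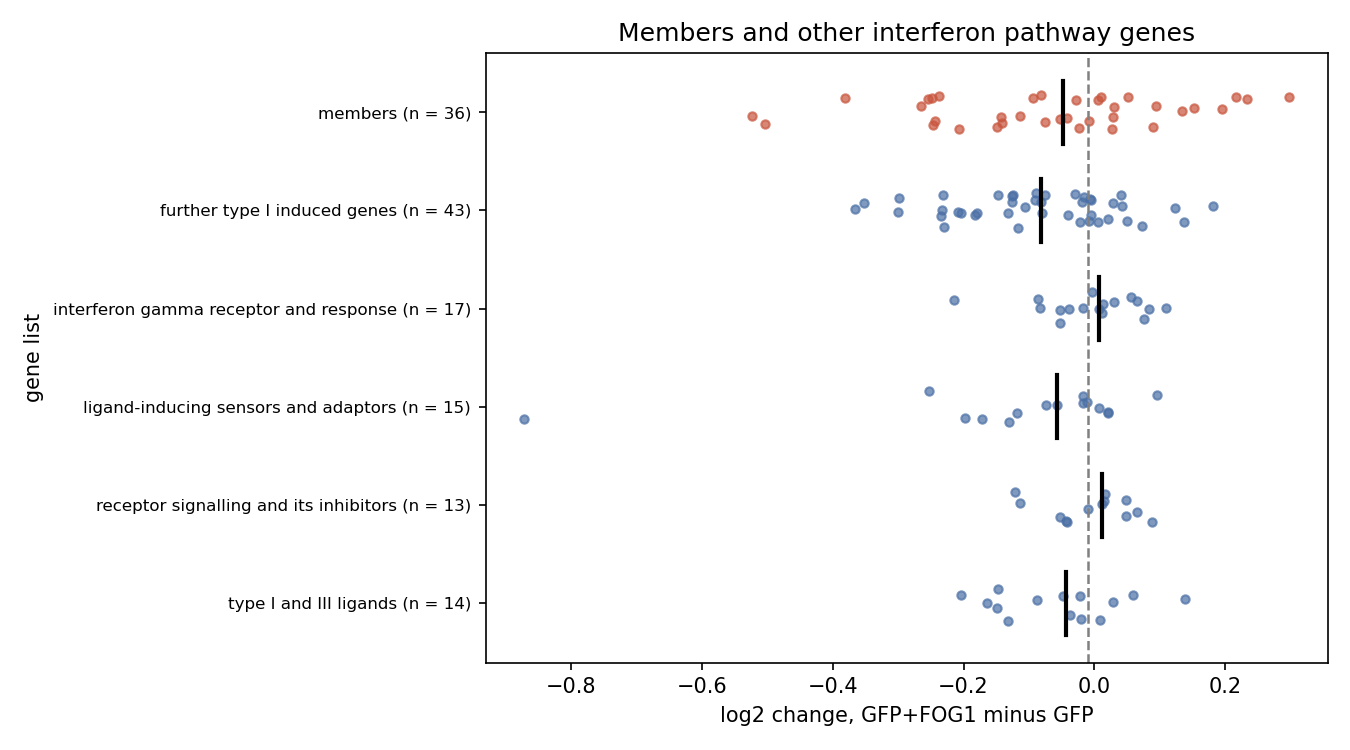
Log2 change, GFP+FOG1 minus GFP, of the members (red) and of 5 lists of other interferon pathway genes (blue); points are genes, black lines list medians, and the dashed line is the median of all genes. Medians lie between -0.08 and 0.01, and the point at -0.87 is Tlr7.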

How the data were processed

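The authors deposited log2 signals of 34760 probe sets for 6 arrays; the log2 scale was read from the values, 3.12 to 14.07. Per the submitters' processing notes the affy package was used. How background, normalization and probe summary were handled is not given in the sources used here, and a shift shared by most genes could be hidden.

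Groups were taken from the sample titles. Gene names came from the platform annotation with Entrez identifiers (RefSeq, GRCm38.p6): 21640 had 1 symbol, 1321 several and 11799 none here. Each gene was read at its 1-symbol probe set with the highest mean. FOG1 and GFP arrays were tested against each other by limma 3.58.1 (lmFit and eBayes under R 4.3.3, without filter or block), adjusted by Benjamini-Hochberg over all probe sets at 0.05. In 10 simulated data sets with 34760 probe sets, 53.2% of 1.41-fold and 85.2% of 2-fold changes were recovered. Changes were placed on probe sets drawn from the whole array, with noise that was independent between probe sets. The median SD within a group was 0.156 for the members and 0.083 for all probe sets, so these rates cannot be carried over to the members. The number of arrays limits the precision.

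The members and lists were chosen with earlier results of these data known. Values on every array are given for the 12 members with the smallest p, for receptors and transcription factors, and for others singled out after their values were seen (Ifit1, Ifit3, Oas2 and Rtp4). From each other pathway list up to 3 genes with the smallest p were named, plus the ligand with the highest signal. Jak1, Tyk2, Pdgfrb, Col1a1, Thy1, Dcn, Cd79a, Cd79b, Ly6d and Tcf4 were added after their values were seen. The 14 alternatives were other scalings, filters, variance models, a replicate block, gene means and leaving out each array. Figures used matplotlib 3.10.9 in Python 3.11.15.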

Additional observations from a re-analysis of the deposited data

How the results depend on the processing

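The labels give both groups the numbers 1 to 3, but deviations of arrays with one number correlated at -0.07, 0.01 and -0.04, so the numbers show no pairing. With the replicate number as a block, 9 probe sets passed in place of 78, no member and no other pathway gene did (0 and 0), and members at an unadjusted p under 0.05 were 2 below and 2 above 0, against 4.79% and 3.48% of all genes. The adjusted p under this block was 0.176 for Samd9l, 0.152 for Tlr7 and 0.0975 for Zfpm1 (log2 change 0.74).

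Without 1 array, 17 to 38 probe sets, 0 to 0 members and 0 to 1 other pathway genes passed. Members at an unadjusted p under 0.05 were then 2 to 8 (1 to 7 below and 1 to 3 above 0), against 6.65% to 14.1% of all genes, and the 8 came without GFP+FOG1 replicate 3, where 6.89% of all genes passed; their median log2 change was -0.123 to 0.0115, above 0 without GFP replicate 1 (0.0115) or GFP+FOG1 replicate 1 (0.001). After median centring 0 members and 0 other pathway genes passed, and 3 members were above 0 at an unadjusted p under 0.05, where 8.67% of all genes were above and 3.96% below. That count above 0 was 2 with 1-symbol probe sets alone, a variance trend, no dim probe sets or gene means (6.11%, 6.14%, 9.72% and 6.23% of all genes), and gene means gave 2 other pathway genes past the threshold.

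Signs turned for Oas3 with array weights (-0.0032), for Zbp1 after median centring (0.0022) and for Ifit2 after median centring (0.0171) and quantile normalization (0.012). They also turned when 1 array was left out for 14 members, whose log2 changes then ran from -0.446 to 0.0035 for Oas2, -0.144 to 0.0062 for Stat2, -0.0097 to 0.213 for Cmpk2, -0.109 to 0.02 for Ifi35, -0.131 to 0.0247 for Parp9 and -0.256 to 0.12 for Usp18. The ranges were -0.106 to 0.217 for Ifi27l2a, -0.0938 to 0.115 for Oas3, -0.072 to 0.115 for Parp14, -0.115 to 0.0428 for Zbp1, -0.107 to 0.15 for Mx1, -0.0432 to 0.0172 for Ifit2, -0.048 to 0.112 for Eif2ak2 and -0.0796 to 0.147 for Rsad2. The cause of these moves was not tested. A pseudocount was not run, as the values are already log2. The dim members (Ifih1, Oas3, Mx1, Mx2 and Rsad2) had signals below the median of all values, which can limit what is detected. No background level was computed.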

Other observations

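FOG1 works with GATA factors, so the promoter windows were also searched for the GATA core, AGATAA or TGATAA on both strands. It was found for 5 of 27 members (18.5%), namely Irf7, Irf9, Isg20, Oas3 and Oasl2, and for 21% of all 27025 genes with a window. Their log2 changes between groups were -0.24 for Irf7, -0.15 for Irf9, -0.09 for Isg20, 0.03 for Oas3 and -0.25 for Oasl2, and none of these passed (limma).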
